A study of Mus musculus with 6 samples.

Results

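The 3 control arrays of a mouse embryonic stem cell study are described here on their own, as the state of the cells without a knockdown. They are 3 of the 6 arrays of the series and were chosen by the transfection named in the labels, "control". The other 3 arrays, of cells transfected with a short hairpin RNA vector against the chromatin remodeller Chd9, entered only the normalization. The control cells had been electroporated with a pHYPER vector, and what the control vector carried is not given in the sources used here. Selection with puromycin, an antibiotic that only cells with the vector's resistance gene survive, began 24 h after transfection and lasted 48 h until RNA was taken. All cultures grew in DMEM containing 15% serum and leukemia inhibitory factor (LIF) in excess, on mouse embryonic fibroblasts whose division had been stopped with mitomycin C. No label says that the feeder cells were removed before RNA extraction, and the strain and passage of the stem cells are not given in the sources used here. Whether the 3 samples were separate cultures is also not stated, so the spread between them may be technical.

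Mouse embryonic stem cells are the cultured counterpart of the inner cell mass of the blastocyst. The transcription factors Pou5f1 (Oct4), Sox2 and Nanog hold the pluripotent state, and LIF acts through Stat3 to keep a naive set of factors, among them Klf2, Klf4, Klf5, Tfcp2l1, Esrrb and Tbx3, switched on. Serum cultures are known to be mixed: single cells move between naive and more primed states, and a few pass through a state like that of the 2-cell embryo, marked by Zscan4. Feeder fibroblasts add matrix proteins, LIF and other secreted factors, and their RNA is read together with that of the stem cells.

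Each sample was read on 1 Illumina bead array with 45281 probes. Probes above the negative control beads (detection p-value under 0.05) numbered 18383, 18457 and 17981 on control 1, 2 and 3, which is 40.6%, 40.8% and 39.7% of the probes. Log2 intensities of the detected genes correlated with r between 0.981 and 0.986 over the 3 pairs of arrays, a description across genes, which are not independent replicates. All arrays lay on the same slide. The number of arrays limits the precision of the values below, and with 1 group there is no comparison to test, so no p-value is given for any difference.

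On all 3 control arrays 15295 probes were detected (33.8% of the probes). They represented 9108 of the 19057 named genes (47.8%), called detected genes here. By the probe that represents them, a further 3030 genes passed on 1 or 2 arrays and 6919 genes (36.3%) on none. Each gene is represented by its brightest detected probe or, where none is detected on all 3 arrays, by its probe with the highest mean. A gene given as not detected on any array is one whose representing probe passed on none. The level of a gene is the background-corrected, quantile-normalized log2 intensity. The mean levels of detected genes ran from 4.83 to 15.20, with a median of 7.93 and quartiles of 6.38 and 9.65. The dimmest detected genes included Irx5, a homeobox gene, with 4.84, 4.81 and 4.91. Genes that missed detection had a median of 4.44, so the threshold lies where signal runs into background. Detection is also a property of the probe: of 153 genes for ribosomal proteins, translation, the proteasome and chaperones, and the respiratory chain, which every cell uses, 13 (8.5%) were not detected on all 3 arrays and 9 on none. Absence of a signal is therefore given below as "not detected", never as absence of the transcript.

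Detection followed the kind of gene. Of the genes in the pluripotency lists 91 of 114 (79.8%) were detected, of metabolic genes 151 of 169 (89.3%), of chromatin genes 151 of 177 (85.3%) and of genes for growth and division 176 of 202 (87.1%), against 47.8% of all genes. Genes of the fibroblast feeder layer, with inflammatory genes and proliferins, were detected in 51 of 71 cases (71.8%). Genes of embryonic lineages were detected in 67 of 167 cases (40.1%), and those of other differentiated cell types in 30 of 78 (38.5%).

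**Figure D1:**
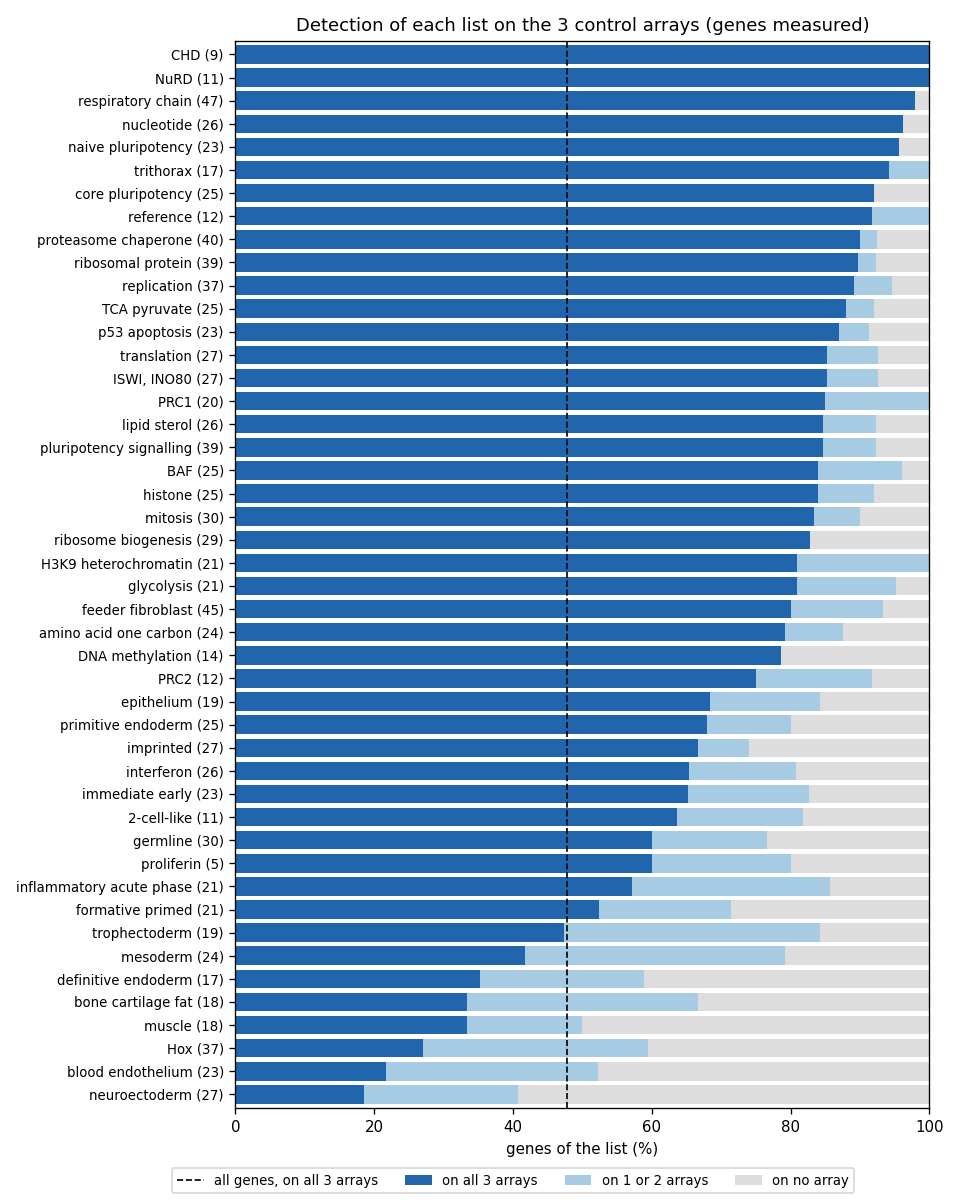
Share of the genes of each of 46 lists detected on all 3 control arrays (dark blue), on 1 or 2 (light blue) or on none (grey), with the number of genes measured beside the list. The dashed line marks the 47.8% of all genes detected on all 3 arrays. The CHD and NuRD lists stand at 100% and the neural list at 18.5%.

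By its mean over the 3 arrays the brightest gene of the control cells was Dppa5a, an RNA-binding protein made in pluripotent and germ cells, with a level of 15.24, 15.14 and 15.20 on control 1, 2 and 3. On control 2 the elongation factor Eef1a1 was brighter, at 15.24, as were Rps2, Npm1 and Rplp1. Next by mean came Npm1, a nucleolar chaperone, at 15.17, and Eef1a1 at 15.14. Of the 20 brightest genes 10 encoded ribosomal proteins, from Rps2 at 15.13 to Rpl23 at 14.84. The other genes among the 20 brightest were Atp5b of the mitochondrial ATP synthase, Ppia (cyclophilin A), Tuba1b (alpha tubulin), the cytokine Mif, the mitochondrially encoded CYTB, the RNA-binding protein Ybx1 and the histone gene H2ac24. Brightness reflects the probe as well as the transcript. In the 3094 genes with at least 2 detected probes, the brightest probe stood 1.05 log2 units above the next in the median, with an upper quartile of 2.23. Ranks among the 9108 detected genes are therefore ranks of probe signal, and gene lists are compared by the median over their members.

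Ordered by the median level of their detected members, the 46 lists began with ribosomal proteins at 14.31, translation factors at 12.31, proteasome and chaperones at 12.18, then glycolysis and the common reference genes at 11.80 and the respiratory chain at 11.55. Core pluripotency stood in place 8 at 10.49, above the Polycomb complex PRC2 at 10.39 and the lists for mitosis (10.17) and DNA replication (10.10). Naive pluripotency was in place 15 at 9.86 and the fibroblast feeder list in place 16 at 9.75. At the low end stood Hox genes at 6.16, definitive endoderm at 5.73 and mesoderm at 5.60, against 7.93 for all detected genes. In the bright lists of housekeeping genes a few members were dim: the faintest detected ribosomal protein stood at 4.99.

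**Figure D2:**
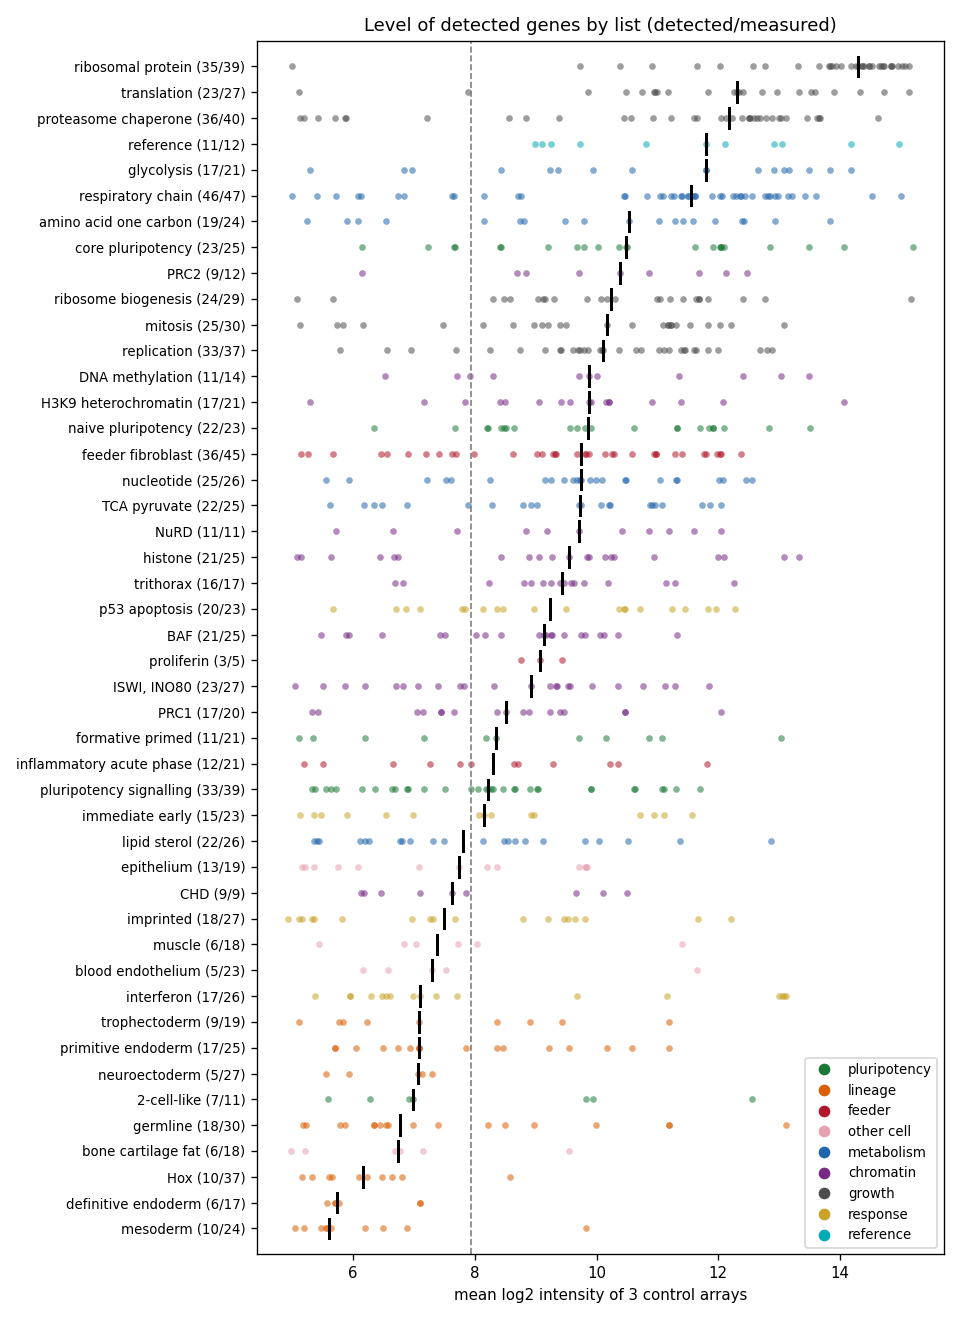
Mean log2 intensity over the 3 control arrays of each detected gene (points, coloured by class) in 46 gene lists, with the list's median as a black bar and the numbers of detected and measured genes beside its name. The dashed line is the median of all detected genes, 7.93. Ribosomal proteins lie at the top with a median of 14.31 and mesoderm genes at the bottom with 5.60.

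The labelled stem cell identity was checked against its defining markers, all of which were detected. Pou5f1, a POU-domain factor, had a level of 12.24, 12.15 and 11.89 on control 1, 2 and 3 and ranked 373 of 9108. Nanog, a homeodomain factor, had 12.23, 11.98 and 11.89 and ranked 409. Sox2, the HMG-box partner of Pou5f1, had 8.14, 8.94 and 8.22 on its brighter probe and ranked 3866. All 3 were detected on every array, and none differed between arrays by more than the 0.80 units of Sox2.

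The promoter of Nanog is printed because an octamer of the Pou5f1 type and a box of the Sox type stand side by side in it, a pairing known from genes that both factors bind in these cells. It is 1 of 2 promoters that RefSeq gives for the gene, read 5' to 3' from 250 bases before to 50 bases after the annotated start (GRCm38.p6, chr6:122707239-122707538, plus strand). Capitals mark TTTGCAT, at bases 75 to 69 before the start, and ACAATG, at bases 67 to 62.

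Nanog: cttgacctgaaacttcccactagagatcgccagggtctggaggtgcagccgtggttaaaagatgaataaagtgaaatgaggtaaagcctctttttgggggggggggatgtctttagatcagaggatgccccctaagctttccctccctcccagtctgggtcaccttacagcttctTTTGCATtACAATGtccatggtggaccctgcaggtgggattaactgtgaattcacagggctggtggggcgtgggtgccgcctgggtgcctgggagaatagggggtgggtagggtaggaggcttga

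Of all 32851 promoters in the table, 4.63% hold TTTGCAT and 12.6% hold ACAATG, on either strand. These are matches of letters, and binding was not measured here.

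Of the 25 core pluripotency genes 23 were detected, 10 of them within the brightest 911 genes. After Dppa5a the brightest were Trim28, a corepressor that silences retroviruses in stem cells, at 13.98, 14.20 and 14.04, and Dnmt3l, the cofactor of the de novo DNA methyltransferases, at 13.37, 13.73 and 13.38. Dppa4, a chromatin protein of early embryos, had 12.74, 13.01 and 12.79, and its partner Dppa2 had 8.35, 8.45 and 8.45. These genes kept within 0.36 log2 units across the arrays. Sall4 and the Polycomb subunit Phc1 both averaged 12.05, and Zfp42 (Rex1), a classic marker of undifferentiated cells, had 11.65, 12.14 and 11.96. Lefty1, a Nodal inhibitor, averaged 11.62, against 9.79 for Lefty2. The growth factor Gdf3 and the chromatin protein Utf1 each averaged 10.49, and the RNA-binding Trim71 averaged 10.37. Lower stood Ctcf (10.02), the orphan receptor Nr6a1 (9.68) and L1td1 (9.21). The dim members were the Nodal co-receptor Tdgf1 (7.67), Lin28a (7.65), the telomere and replication-timing protein Rif1 (7.24) and the growth factor Fgf4, which had 5.78, 6.38 and 6.28. Foxd3 and Mycn were not detected on any array.

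The naive factors were nearly all present as well, 22 of 23. Esrrb, the orphan receptor that can replace Nanog in reprogramming, was the brightest with 13.37, 13.62 and 13.52 (rank 96). Fbxo15 averaged 12.84, and the Krüppel-like factors Klf2 and Klf5 averaged 12.10 and 11.92, against 8.49 for Klf4. Tfcp2l1 had 12.08, 11.83 and 11.62. Klf4 ranked 3798, and its second probe averaged 8.40. Gbx2, a homeobox target of Stat3, had 11.65, 11.53 and 10.78, and Socs3, the feedback inhibitor of the LIF pathway, had 10.74, 10.66 and 10.44. Stat3 itself had 9.08, 8.74 and 8.09. The remaining members were Manba (11.70), Mybl2 (11.32), Tcl1 (9.91), the cadherin Cdh1 (9.81), Tbx3 (9.68), the Ras-like Eras (9.57), Sall1 (8.51), the nuclear receptor Nr5a2 (8.43), Dppa3 (8.22), Jam2 (8.21), Pecam1 (7.67) and Prdm14, a repressor of primed genes, at 6.34. Nr0b1 was not detected on any array.

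Genes of the formative and primed epiblast were found in 11 of 21 cases, with a median level of 8.35. Dnmt3b, a de novo DNA methyltransferase, was the brightest at 13.21, 13.12 and 12.76, followed by the ligand Nodal at 10.91, 11.21 and 11.11 and the FGF-responsive factors Etv5 (10.87) and Etv4 (10.15). Pou3f1 (Oct6) averaged 7.16, and Fgf8 had 6.88, 6.37 and 5.36. Not detected on any array were Dnmt3a, Lef1, Cer1, Foxa2 and Eomes. Of the signalling genes 33 of 39 were detected, with a median of 8.22. Tcf7l1, the repressor at Wnt targets, led with 11.70, above Ctnnb1 (beta-catenin, 11.30) and the ERK phosphatase Dusp6 (11.10). Akt1, Grb2 and Spry2 were not detected, although they are widely used signalling genes.

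The 2-cell-like genes had 1 very bright member. Zscan4c, which stands for a cluster of near-identical copies that the probe may not tell apart, had 12.00, 12.39 and 13.25 and ranked 239. Tcstv3 had 9.29, 10.02 and 10.54, and Tcstv1 had 9.35, 9.52 and 10.60. The 7 detected genes of 11 had a median of 6.99. Spz1 and Usp17lb were not detected on any array.

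The lineage lists held few bright genes, and several of those are also expressed by stem cells or fibroblasts. In the primitive endoderm list, 17 of 25 were detected. Rhox5, an X-linked homeobox gene also active in stem cells, averaged 11.19, Sparc, a matrix protein that fibroblasts make too, 10.58, and the laminin chains Lamc1 and Lama1 10.17 and 9.55. The factors that define the lineage were lower: Gata6 had 6.928, 6.996 and 7.317, Sox17 had 5.64, 5.99 and 5.46, and Gata4 was not detected. For trophectoderm 9 of 19 were detected, led by Tfap2c at 11.20, a factor that stem and germ cells use as well. Cdx2, its defining factor, had 6.28, 5.80 and 5.21, Gata3 was detected on 2 arrays and Elf5 on 1, and Eomes, Tpbpa and Plac1 on none. For mesoderm 10 of 24 were detected, and only Tcf15, a factor also found in stem cells that start to leave the naive state, stood above the median of all detected genes, at 9.83. Mixl1 passed on 1 array and Mesp1 on none.

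Neural genes were the least detected list, with 5 of 27 present and 16 on no array. Sox1, Pax6, Pax3, Pax7 and Tubb3 were among the undetected, and the brightest were Map2 at 7.29, En1 at 7.14 and En2 at 7.07. Nes, an intermediate filament of neural progenitors, had 5.97, 5.75 and 6.07. For definitive endoderm 6 of 17 were detected, at most at 7.10 (Foxa3), with Foxa2, Prox1, Alb and Afp on no array. Hox genes were present in 10 of 37 cases. Hoxc6 was the only one above the median of all detected genes and had 8.12, 8.25 and 9.38, and Hoxc9 had 6.23, 6.18 and 7.48. Both were highest on control 3. In the germline list 18 of 30 were detected, led by Ifitm3 at 13.11, and the meiosis genes Sycp1, Sycp3 and Stra8 were not detected.

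Of the markers of other cell types 30 of 78 were detected on all 3 arrays, 19 on 1 or 2 and 29 on none. Of the muscle list 6 of 18 were detected, and Myod1 and Myog were on no array, while the myosin light chain Mylpf stood at 11.40. Of the blood and endothelium list 5 of 23 were detected. Ptprc, Cdh5 and Tie1 were on no array, Csf1r and Lyz2 passed on 1 array each, and the bright exception was Laptm5, a lysosomal membrane protein, at 11.65. Epithelial genes, which stem cells share in part, were present in 13 of 19 cases, with the splicing factor Esrp1 at 9.85 and Cldn4 at 9.82. Epcam, known as a surface marker of stem cells, was not detected on any array.

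Genes of the fibroblast feeder list were detected in 36 of 45 cases. Lgals1 (galectin-1) had 12.36, 11.25 and 11.79 on control 1, 2 and 3 and ranked 513, and the intermediate filament Vim had 11.250, 10.579 and 10.997 and ranked 1006. Both were highest on control 1 and lowest on control 2. The brightest detected genes were Ccn2 (12.37), a matrix-associated growth regulator, Timp1 (12.05), a metalloproteinase inhibitor, the membrane-binding Anxa2 (12.03) and the proteoglycan Bgn (11.98). Fn1, fibronectin, had 10.10, 10.28 and 10.45, and Thy1, a fibroblast surface protein, 9.48, 8.35 and 10.15. Of the fibrillar collagens, Col1a1 had 8.10, 7.29 and 7.49, while Col1a2 and Col3a1 passed on 1 array each and Col5a2 on none. Stem cells express several of these genes too, so the share of feeder RNA in their signal was not tested, and in these mixed samples fewer cells of a type and less RNA per cell cannot be told apart.

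Glycolysis was among the brightest metabolic lists, with 17 of 21 detected. Gapdh averaged 14.19, Ldha, which turns pyruvate into lactate, 13.84, the high-affinity glucose transporter Slc2a3 13.49 and Pkm 13.16. Respiratory chain and ATP synthase genes were detected in 46 of 47 cases, led by Atp5b (15.01) and Atp5g3 (14.53). Citric acid cycle enzymes were lower, with a median of 9.73 and Idh3g the brightest at 12.05. In amino acid and one-carbon metabolism the polyamine enzyme Odc1 led at 13.84, followed by Got2 (12.93), Asns (12.43) and the glycine-cleavage enzyme Gldc at 12.35, 12.45 and 12.37. Lipid synthesis had a median of 7.81, below that of all detected genes. Acly, which supplies acetyl-CoA, stood apart at 12.85, 12.90 and 12.86, while Fasn and Acaca, which use it, were not detected on any array.

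Growth lists were bright and division genes well represented. Replication genes were detected in 33 of 37 cases with Rpa1 (12.88), Mcm4 (12.81) and Mcm5 (12.69) at the top, and mitosis genes in 25 of 30, led by the centromeric histone Cenpa (13.07), Prc1 (12.22) and Cdc20 (12.03). In the p53 and apoptosis list 20 of 23 were detected. Mdm2, the ligase that restrains p53, had 11.98, 12.15 and 12.69, and Cdkn1a (p21), an inhibitor of the cell cycle, had 11.02, 10.14 and 10.97. The immediate early factor Egr1 averaged 11.57.

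Chromatin regulators covered a wide span of levels. PRC2, which writes methylation on lysine 27 of histone H3, had 9 of 12 members detected. The accessory subunits Epop (12.46) and Mtf2 (12.13) and the core subunit Suz12 (11.68) were brighter than Eed (9.71) and the enzyme Ezh2 (8.69). Ezh1 and Jarid2 passed on 1 array each and Phf1 on none. DNA methylation genes included Dnmt3l (13.49), Dnmt3b (13.03) and Uhrf1 (12.41), with Dnmt1 at 10.01 and the dioxygenase Tet1 at 9.88. For Dnmt3a, Tet3 and Hells no array gave a signal above background. All 11 genes measured of the NuRD list were detected, with Sall4, which is also in the core pluripotency list, and Hdac2 (11.61) at the top. Of the BAF remodeller 21 of 25 were detected, led by Ss18 (11.32), with the ATPase Smarca4 at 8.06, 8.51 and 7.93.

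All 9 CHD remodellers measured were detected, with a median of 7.63. Chd4, the NuRD ATPase, was the brightest at 10.61, 10.62 and 10.28, followed by Chd8 at 10.10, 10.27 and 9.93 and Chd2 at 9.37, 9.98 and 9.63. Chd1, which associates with active transcription and is known to be needed for open stem cell chromatin, averaged 7.86. Chd9, the target of the study's hairpin, had 7.36, 7.74 and 7.80 in these cells and ranked 4945, close to the middle of the detected genes. Below it came Chd6 (7.10), Chd1l (6.46), Chd5 (6.18) and Chd3 (6.13). In this order the neighbours Chd8 and Chd2, Chd1 and Chd9, Chd1l and Chd5, and Chd5 and Chd3 had overlapping values on the 3 arrays.

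The 3 control arrays were close for most genes. The SD of a detected gene over the 3 arrays had a median of 0.192 log2 units, with quartiles of 0.119 and 0.29, and the median difference between its highest and lowest array was 0.37, or 1.29-fold. This difference is called the range. It exceeded 1 log2 unit, a 2-fold difference, in 363 genes (3.99%) and 2 units in 18. The count was 80 without background correction and in the deposited series table, and 108 with a background correction that used no control probes, so the 3.99% holds for the background correction used here. Just inside that threshold lay Fgf10, Exoc7 and Fhl2 at 1.001, and just outside it Cavin1, Rspo3 and Wnt7b at 0.999. Spread depended on level: split into 10 equal groups by level, the median SD was 0.26 in the second-dimmest and 0.13 in the brightest group. The spread of a list is therefore also given as the share of its genes whose SD lay above the median of their level group. Over all detected genes these shares split evenly by construction.

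**Figure D3:**
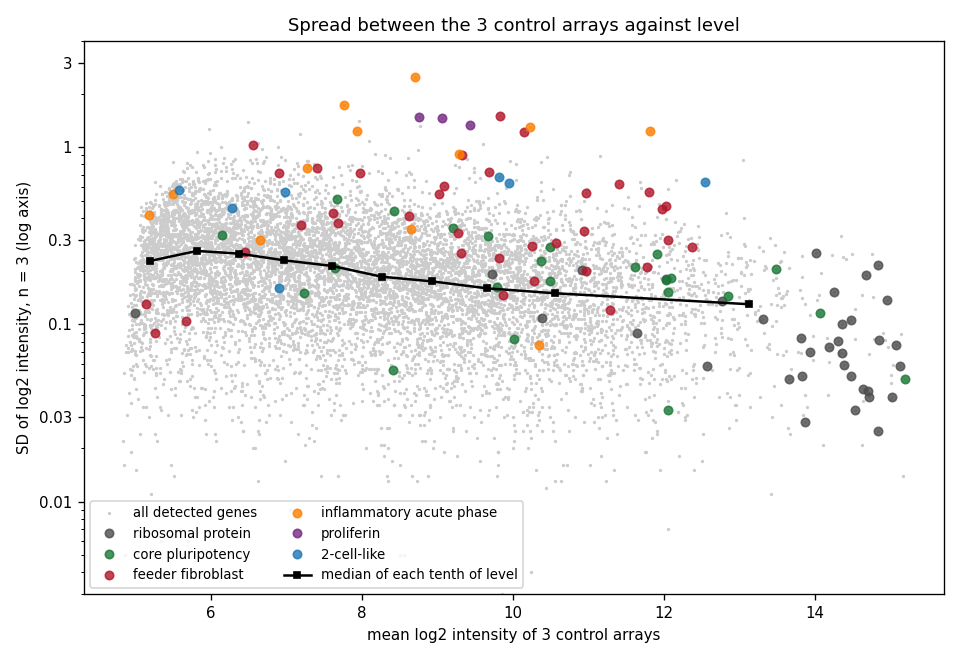
SD over the 3 control arrays (log axis) against mean log2 intensity for the 9108 detected genes (grey) with 6 lists in colour, and the median SD of 10 equal groups by level (black squares, from 0.26 at most to 0.13 in the brightest). Proliferin, inflammatory and many feeder genes lie above the line, and most ribosomal proteins below it.

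By gene class, growth genes were the tightest, with a median SD of 0.137 and 1 of 176 genes with a range over 1. Ribosomal proteins had a median SD of 0.081, the smallest of all lists, and 25.7% of them lay above the median of their level group. Of the 35 detected, 31 lay in the brightest level group, which spans 11.08 to 15.20. The list's median level was 14.31, so this share is only roughly matched for level. Metabolic genes had a median SD of 0.168 and 4 of 151 with a range over 1, and chromatin genes 0.206 and 2 of 151. Pluripotency genes had 0.232 and 7 of 91, 5 of these in the 2-cell-like list. Lineage genes had 0.248 and 12 of 67, genes of other cell types 0.218 and 1 of 30, and reference genes 0.185 and 2 of 11. Immediate early, p53 and apoptosis, interferon and imprinted genes, taken as 1 class, had 0.274 and 9 of 70. The fibroblast feeder list had 0.369 and 13 of 36 (36.1%), against 3.99% of all detected genes. All lists were chosen with earlier results of these data known, so this share is a description and not independent evidence. With the inflammatory and proliferin lists, which were chosen because they were known to vary between these cultures, the feeder class had 0.451 and 24 of 51 (47.1%), so its share is not independent evidence.

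Genes of inflammation and the acute phase differed most between the control samples after the 3 proliferins. Both lists were chosen because they were known to vary between these samples. Saa3, an acute-phase serum amyloid, had 11.17, 6.19 and 8.74 on control 1, 2 and 3, a range of 4.98 and the widest of all detected genes. Lcn2, an iron-scavenging lipocalin, had 9.76, 6.67 and 6.86. The chemokines Ccl7, Ccl2 and Cxcl1 had ranges of 2.56, 2.48 and 1.81. In all 5 genes control 1 was the highest and control 2 the lowest. Of the 12 detected genes of the list 8 had a range over 1, and 7 had the order control 1, control 3, control 2, which 17.4% of all detected genes had. Given how the list was chosen, these counts are a description and not independent evidence. The mean level of the list was 9.05, 7.45 and 8.34, a range of 1.61, which was 0.59 without control 2 and 0.90 without control 1. Here and below, values without an array come from normalization, detection and choice of probe repeated on the remaining arrays. They can cover other genes of a list and are not differences of the printed means. Icam1, an adhesion molecule, is a member that hardly differed, with 10.29, 10.44 and 10.33.

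Matrix and fibroblast genes had the same order of arrays. Dcn, the proteoglycan decorin, had 11.22, 8.25 and 10.03, and its second probe had 8.69, 5.49 and 7.84. Prrx1, a mesenchymal homeobox factor, had 7.300, 5.381 and 6.999, and Pdgfra, the PDGF receptor of fibroblasts and primitive endoderm, 7.66, 4.95 and 6.87. Of the 36 detected feeder genes 23 had the order control 1, control 3, control 2 (17.4% of all detected genes), control 2 was the lowest in 29 (32.0%), and 13 had a range over 1 (3.99%). This list too was chosen with earlier results known, so these counts are a description and not independent evidence. The list mean was 9.72, 8.93 and 9.40, a range of 0.79 or 1.73-fold, which was 0.39 without control 2 and 0.47 without control 1. Not every member followed: Ccn2 had 12.12, 12.33 and 12.66, and Acta2 11.21, 11.43 and 11.23. Without the 1 gene shared with another list the values were nearly as before, with a range of 0.80.

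The matrix-degrading enzymes of this group are shown with their promoters because 3 metalloproteinase genes of chromosome 9 differed together. Mmp13, collagenase 3, had 12.75, 10.41 and 12.29, Mmp3, stromelysin 1, had 11.48, 9.06 and 9.90, and Mmp10, stromelysin 2, had 10.18, 7.57 and 8.55. Each was highest on control 1 and lowest on control 2, as were the second probes of Mmp13 and Mmp3. RefSeq promoters follow (GRCm38.p6, plus strand, 5' to 3', from 250 bases before to 50 after the annotated start), at chr9:7272264-7272563 for Mmp13, chr9:7445572-7445871 for Mmp3 and chr9:7502092-7502391 for Mmp10. Capitals mark TGANTCA, the letters of an AP-1 site, and TATAAA, those of a TATA box, which do not overlap each other.

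Mmp13: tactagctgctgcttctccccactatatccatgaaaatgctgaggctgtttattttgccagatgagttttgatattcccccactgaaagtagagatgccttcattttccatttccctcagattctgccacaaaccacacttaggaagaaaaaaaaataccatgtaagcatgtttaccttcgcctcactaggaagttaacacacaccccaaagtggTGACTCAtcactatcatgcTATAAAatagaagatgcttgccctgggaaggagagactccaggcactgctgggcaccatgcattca

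Mmp3: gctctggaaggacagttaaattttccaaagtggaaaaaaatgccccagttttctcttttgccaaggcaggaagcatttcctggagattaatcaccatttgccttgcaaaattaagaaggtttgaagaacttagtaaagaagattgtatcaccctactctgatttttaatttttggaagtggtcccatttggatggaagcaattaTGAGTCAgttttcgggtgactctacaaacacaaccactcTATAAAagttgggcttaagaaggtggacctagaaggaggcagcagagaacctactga

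Mmp10: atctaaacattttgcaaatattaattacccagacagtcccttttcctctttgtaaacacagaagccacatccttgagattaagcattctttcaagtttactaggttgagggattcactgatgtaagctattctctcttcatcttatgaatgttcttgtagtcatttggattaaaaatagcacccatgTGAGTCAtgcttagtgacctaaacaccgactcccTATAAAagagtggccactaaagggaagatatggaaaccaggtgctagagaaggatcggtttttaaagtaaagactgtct

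In each promoter the AP-1 letters lie upstream of the TATA letters, at bases 35 to 29 before the start in Mmp13, 46 to 40 in Mmp3 and 63 to 57 in Mmp10. The TATA letters lie at bases 16 to 11 before the annotated start in Mmp13, 7 to 2 in Mmp3 and 29 to 24 in Mmp10. Of all promoters 7.81% hold TGANTCA and 13.6% hold TATAAA on either strand.

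The promoter of Saa3 is added as that of the gene with the widest range (GRCm38.p6, chr7:46715627-46715926, minus strand). Capitals mark a match to TTGCNNAAT, letters of the C/EBP type known from acute-phase genes, which lies on the opposite strand at bases 100 to 92 before the start. TTGCNNAAT is held by 2.4% of all promoters on either strand, and can share letters with TTTGCAT.

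Saa3: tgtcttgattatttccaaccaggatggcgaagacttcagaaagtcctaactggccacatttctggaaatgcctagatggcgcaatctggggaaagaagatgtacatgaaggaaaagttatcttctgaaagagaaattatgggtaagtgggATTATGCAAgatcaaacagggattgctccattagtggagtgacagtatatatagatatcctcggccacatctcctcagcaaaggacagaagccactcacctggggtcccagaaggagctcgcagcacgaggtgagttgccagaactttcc

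Over the promoters as a whole, the genes with a range over 1 carried TATAAA in 18.8% of the 276 cases with a promoter entry, against 8.65% of the detected genes. The share was 24.8% of 109 genes with the order control 1, control 3, control 2 and 24.1% of 58 with the order control 3, control 2, control 1, so it was alike in these groups. TGANTCA was present in 11.6% of the genes with a range over 1, in 15.6% and 8.62% of these 2 groups, and in 5.82% of the detected genes. The genes were grouped here by their own values, so these shares are a description.

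A broader difference of the promoters went with detection itself. Genes detected on all 3 arrays had a median GC content of 61.3% and a median CpG ratio (observed over that given by base composition) of 0.779 in their promoters. Genes detected on no array had 50.7% and 0.287, and held TATAAA in 21.1% of cases, against 8.65% in detected genes. Promoters rich in CpG are known from genes that most cells use.

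**Figure D4:**
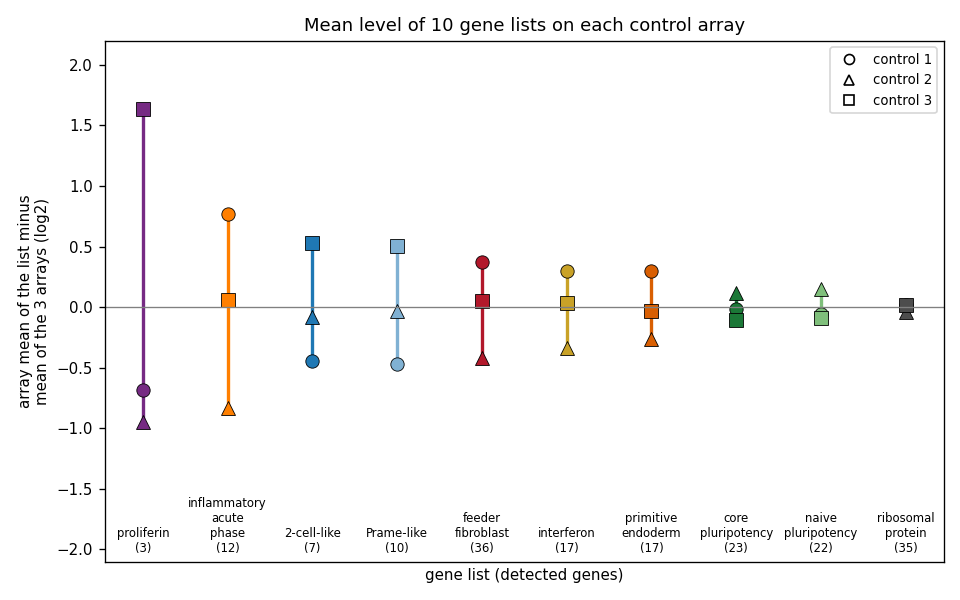
Mean log2 intensity of 10 gene lists on control 1 (circles), control 2 (triangles) and control 3 (squares), each minus the mean of the 3 arrays, with the number of detected genes in brackets. The proliferin list spans 2.58, the inflammatory list 1.61, the 2-cell-like list 0.98, and the core pluripotency list 0.23.

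Interferon response and antigen presentation genes shared the low signal on control 2. B2m, the light chain of MHC class I, had 13.58, 12.07 and 13.51, and its second probe 13.48, 12.30 and 13.37. The heavy chain gene H2-D1, which has close relatives, had 11.50, 10.15 and 11.83, and Usp18, a protease that limits interferon signalling, 7.30, 5.71 and 6.82. Control 2 was the lowest in 12 of the 17 detected genes (32.0% of all detected genes) and the highest in 0 of 17 (36.2%). As the list was chosen with earlier results known, these counts are a description and not independent evidence. The range of the list mean, 0.64, was 0.31 without control 2 and 0.35 without control 1. The bright Ifitm1, Ifitm2 and Ifitm3 differed by at most 0.43.

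The proliferins, a list chosen because it was known to vary between these samples, were set apart by control 3. Prl2c2, Prl2c3 and Prl2c4, secreted prolactin-family proteins first known from growing fibroblasts, are near-identical genes whose probes may read each other's transcripts, so they are not independent observations. Prl2c4 had 8.18, 7.64 and 10.45, Prl2c3 had 8.456, 8.001 and 10.736, and Prl2c2 had 8.56, 8.78 and 10.96. The list mean was 8.40, 8.14 and 10.72, a range of 2.58, which was 0.26 without control 3. Control 3 was more than 2 units above the other arrays on each of these probes, and control 1 and control 2 lay close together.

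The 2-cell-like genes had yet another order. Control 3 was the highest in 6 of 7 detected genes (31.3% of all detected genes), and 5 had the order control 3, control 2, control 1 (16.6%). Since the list was chosen with earlier results known, these counts are a description and not independent evidence. The 5 genes with a range over 1 were Tcstv1, Zscan4c and Tcstv3, each at 1.25, Arg2, an arginase, at 1.11, and Zfp352, a zinc finger gene, at 1.06. Whether the probes of Tcstv1 and Tcstv3 read each other's transcripts was not tested, so these genes may not be independent observations. The second, dim probe of Zscan4c had 5.54, 6.13 and 5.92 and did not share the order. The list mean was 7.85, 8.21 and 8.83, a range of 0.98, which was 0.37 without control 3 and 0.54 without control 1. The promoter of Zscan4c (RefSeq, GRCm38.p6, chr7:11005495-11005794, plus strand) is shown as that of the list's brightest gene. Capitals mark TGANTCA and TATAAA as before, at bases 184 to 178 and 54 to 49 before the start.

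Zscan4c: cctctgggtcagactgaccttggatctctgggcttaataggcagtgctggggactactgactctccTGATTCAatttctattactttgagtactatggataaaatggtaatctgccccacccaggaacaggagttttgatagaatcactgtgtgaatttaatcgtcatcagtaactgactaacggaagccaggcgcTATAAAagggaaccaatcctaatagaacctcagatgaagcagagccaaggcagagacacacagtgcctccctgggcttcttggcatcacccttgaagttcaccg

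**Figure D5:**
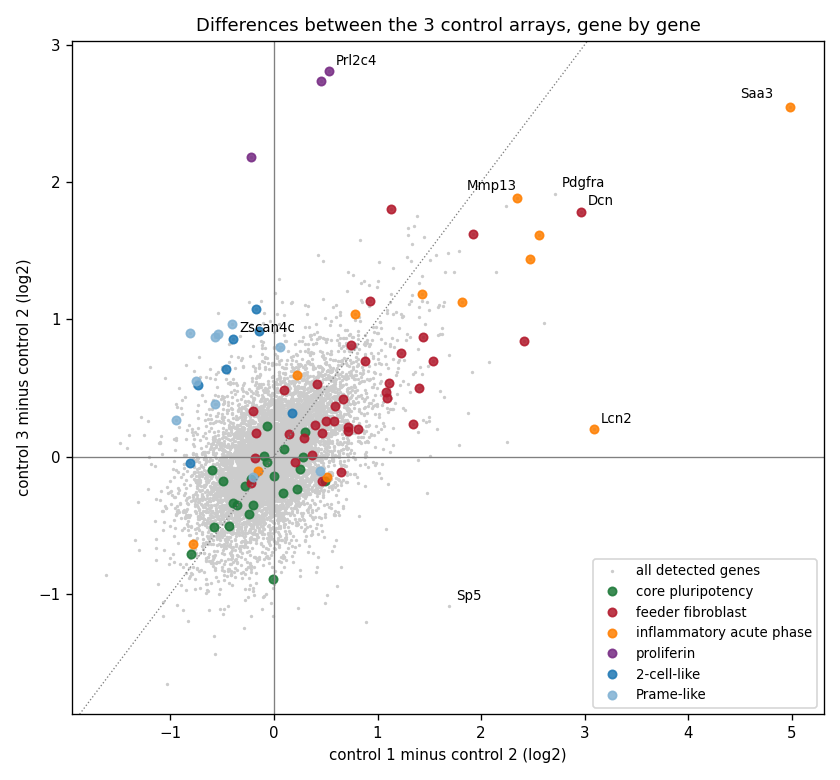
For each detected gene, the difference control 1 minus control 2 (x axis, log2) against control 3 minus control 2 (y axis, log2), with 6 groups of genes in colour and all others in grey. Points on the dotted line have equal levels on control 1 and control 3. Inflammatory and feeder genes extend to the upper right below that line (Saa3 at 4.98 on the x axis), proliferins lie high near the vertical axis, and 2-cell-like and Prame-like genes to the upper left.

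In the core and naive pluripotency lists the means differed less between the samples than in the feeder lists, while single genes varied. The 2-cell-like list, counted in the same class, had a range of 0.98, against 0.79 for the fibroblast feeder list. In the core list no gene of 23 had a range over 1, the list mean was 10.55, 10.69 and 10.46, and the widest members were Tdgf1 at 0.89 and Sox2 at 0.80. The naive list had a mean of 10.06, 10.26 and 10.02 and no range over 1, with Stat3 the widest at 0.98. Without control 2 the range of the list means was 0.093 for the core list, against 0.23 with all arrays, and 0.035 for the naive list, against 0.24, and without control 3 that of the core list was 0.14. Control 2, the lowest array for feeder genes, was the highest in 13 of 23 core and 12 of 22 naive genes, against 36.2% of all detected genes. This was not particular to pluripotency genes: control 2 was the highest in 77 of 151 chromatin genes and 16 of 25 mitosis genes. Of the metabolic genes it was the highest in 59 of 151. Many core and naive genes varied more than other genes of their brightness. The SD lay above the median of the level group in 69.6% of core and 86.4% of naive genes, beside an even split over all detected genes. This was not particular to these lists: the share was 81.8% for DNA methylation genes and 77.8% for CHD genes. By class it was 61.6% for chromatin, 51.7% for metabolic and 44.9% for growth genes. Sox2 shows how far the order of the arrays rests on a probe. Control 2 was the highest on its brighter probe, and on its second probe, at 6.56, 6.02 and 5.79, control 1 was.

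Single developmental genes outside these groups also differed. Sp5, a direct Wnt target, had 9.45, 7.76 and 6.67 and the widest range, 2.78, of any gene highest on control 1 and lowest on control 3. Fgf8 and Cdx2 had the same order, with ranges of 1.53 and 1.07. Mgp, a matrix protein that binds calcium, had 10.61, 9.71 and 8.51. The remaining genes among the 20 widest were the hormone Stc1, the neuronal Nrn1, Tmem176b, Akr1c18 and the protease Mcpt8. They had ranges of 1.91 to 2.25 and were highest on control 1 and lowest on control 2. Over all 363 genes with a range over 1, 140 (38.6%) had that order, against 17.4% of detected genes, and 82 (22.6%) the order control 3, control 2, control 1, against 16.6%. Of these 363 genes 58 belonged to a list and 305 to none.

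Of 11 detected reference genes, often used to scale other measurements, 2 (18.2%) had a range over 1, against 3.99% of all detected genes. In 7 of 11 (63.6%) the SD lay above the median of the level group. Ppia had 15.04, 14.89 and 14.98, Gapdh 14.22, 14.22 and 14.12, and Actb 12.779, 12.999 and 12.984. Ywhaz, Gusb, Tbp, Rplp0 and Pgk1 had ranges of 0.24 to 0.38, and Tfrc 0.60. B2m, at 1.51, and Hprt, with 9.84, 8.66 and 9.25 and a range of 1.18, were the 2 with a range over 1. Both were lowest on control 2.

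A second probe gave a check on these orders within the same RNA. Of the 3094 genes with 2 detected probes, 948 (30.6%) had the same order of the 3 arrays on both. Among the 90 of them with a range over 1 this was 52 (57.8%), and in 33 the second probe also had a range over 1. The order of the arrays for a single gene with a small range is therefore not a stable property of that gene, and this holds for the single-gene orders counted in the pluripotency lists as well.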

How the data were processed

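Biotin-labelled cRNA from mouse embryonic stem cells was read on Illumina bead arrays, 3 for the control transfection and 3 for shChd9. The authors deposited a non-normalized table with, per the file headers, an average intensity on a linear scale and a detection p-value against negative control beads for each probe and array. Per the submitters' processing notes GenomeStudio was used, its version and settings being not given in the sources used here. A deposited series table holds intensities that equal the raw ones after quantile normalization (largest difference 1.59 on the linear scale, rank correlation 1 with the same array). Its scale is linear and uncentred.

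The neqc function of limma 3.58.1 (R 4.3.3) corrected the background, inferring the negative controls from detection p-values. It used an offset of 16 and log2 values, and quantile normalization of all 6 arrays removed any overall difference between them. Of the probes 34885 had 1 gene symbol, 18 several and 10378 none, from GEO's platform annotation with symbols updated through a RefSeq gene table (GRCm38.p6). A gene was called detected with a detection p-value under 0.05 on all 3 control arrays for at least 1 probe, and its brightest such probe stood for it. Raw means were 428, 421 and 383 on control 1, 2 and 3. SDs are over n = 3 arrays. The calculation of ranges, orders and SDs was tested on simulated data.

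The members and the 46 gene lists (1110 of 1212 entries matched a gene of the array) were chosen with earlier results of these data known. The rule for named genes takes, in each list, the 4 brightest and 2 widest detected genes and up to 4 genes not detected on any array. It adds every member of the core, naive, CHD and reference lists and the 20 brightest and 20 widest genes. Lgals1, Vim and the other cell type markers were fixed as such. Acta2, Dnmt1, Ezh1, Ezh2, Irx5, Jarid2, Smarca4, Tet1, Tubb3, Zfp352, the genes beside the range threshold and those under the other observations were named after their values were seen. Alternatives were no background correction, normexp without control probes (offset 50), median scaling, neqc on the control arrays alone, the series table, the mean of a gene's detected probes, a detection threshold of 0.01 or detection on 2 of 3 arrays, and leaving out each array. Leaving out an array repeated the normalization, detection and choice of probe on the remaining arrays. No column was left unassigned.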

Additional observations from a re-analysis of the deposited data

How the results depend on the processing

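The counts of detected probes and genes kept within 1.5 times of 15295 and 9108 under each threshold tried (14382 and 8705 at a detection p-value of 0.01, 17440 and 10079 with 2 of 3 arrays, and 15956 to 16066 and 9441 to 9450 without 1 array). The count of genes with a range over 1, 363, depended on the processing: it was 80 without background correction and in the series table, 108 with normexp without control probes, and 121 to 217 without 1 array, since a range over 2 arrays is smaller by construction. Without control replicate 1, 2 and 3 it was 121, 163 and 217. The median SD ran from 0.126 to 0.196. The range of the feeder list, 0.79, was 0.65 to 0.86 under the other settings and 0.39 to 0.79 without 1 array, and that of core pluripotency, 0.23, was 0.20 to 0.28 and 0.093 to 0.23. Without control replicate 2 these ranges were 0.39 and 0.093, that of the inflammatory list was 0.59 (1.61 with all arrays), that of the interferon list 0.31 (0.64) and that of the naive list 0.035 (0.24). Without control replicate 1 the feeder list had a range of 0.47, the inflammatory list of 0.90, the 2-cell-like list of 0.54 and the interferon list of 0.35. Without control replicate 3 the proliferin list had a range of 0.26 (2.58), the 2-cell-like list of 0.37 (0.98) and core pluripotency of 0.14. The order of arrays in the feeder, inflammatory, interferon, proliferin, 2-cell-like, core and naive list means was the same under the 7 alternatives with 3 arrays that were run for lists, while that of ribosomal proteins was not. Detection on 2 of 3 arrays was run for the counts of probes and genes only. Core pluripotency stood in place 8 by level, in place 5 with the mean of all detected probes and 7 to 8 without 1 array. No paired analysis was possible because there is 1 group. Signal over background limits what is seen of dim genes.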

Other observations

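A family outside the lists had the order of the 2-cell-like genes, a pattern chosen after its values were seen. Prame-like genes (symbol Pramel with a number), leucine-rich repeat proteins of early embryos and germ cells that lie in clusters of close copies, were detected in 10 of 27 cases, against 47.8% of all genes. Control 3 was the highest in 8 of the 10 (31.3% of all detected genes) and 7 had the order control 3, control 2, control 1 (16.6%). Pramel20 had 8.55, 9.36 and 10.26 on control 1, 2 and 3, Pramel37 had 8.83, 9.37 and 10.26, and Pramel4 went the other way with 8.16, 7.72 and 7.61. The family mean was 7.59, 8.02 and 8.55. Outside the family, Tmem92 had 8.29, 9.49 and 10.14, Gm428 had 9.48, 10.53 and 11.10, and Usp26 had 5.75, 7.03 and 7.32.

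Lum, the proteoglycan lumican, had 8.16, 4.76 and 5.45 and was detected on 2 arrays only, so it is not among the wide genes above. Hp and Ptx3, acute-phase genes, passed on 1 and 2 arrays, with 6.17, 4.35 and 4.25 for Hp and 6.24, 4.51 and 5.19 for Ptx3.

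Probes without a gene name made up 1975 of the 15295 detected probes. Their median level was 7.27, against 7.51 for named probes, and 62 of them stood above 14, as did 58 named genes.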
